A study of Homo sapiens with 27 samples.

Results

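The genes described here are the H/ACA protein genes DKC1, NOP10, GAR1 and NHP2 and the stand-alone pseudouridine synthase genes PUS1, PUS3, PUS7, PUS7L, TRUB1 and TRUB2. They were chosen by name. A peak of an antibody list was counted for a gene when the list named that gene, and a pseudouridine (Psi) peak when its summit lay inside the gene's annotated span. These 10 genes held 94 of 76940 listed antibody peaks and 13 of 16672 Psi peaks, among 11732 protein-coding genes with any listed peak. All libraries came from HepAD38, a liver cancer cell line that harbours hepatitis B virus DNA, under the genotype label "Wild type", with no second condition. The labels gave 27 libraries in 9 groups of 3. There were immunoprecipitated (IP) and input groups for N1-methyladenosine (m1A), for m5C (5-methylcytidine), for m7G (7-methylguanosine) and for ac4C (N4-acetylcytidine), and a single Psi group with no input. The stated aim was to learn whether such marks have a role in evolution.

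Pseudouridine is an isomer of uridine that is made within finished RNA chains. In an H/ACA particle, a guide RNA with an H box and an ACA box pairs with the target, and dyskerin, the protein of DKC1, carries out the reaction while NOP10, NHP2 and GAR1 complete the particle. Such particles modify ribosomal and spliceosomal RNA, and the same proteins hold the RNA of telomerase. The PUS and TRUB enzymes instead find their targets, mostly transfer RNAs and some messenger and mitochondrial RNAs, without a guide. The peaks described here thus belong to genes whose own products take part in making pseudouridine, a mark among those looked for. A listed peak is not by itself proof of a mark on the transcript.

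DKC1 is also a host gene, and 1 of its Psi peaks had its summit inside a hosted RNA gene. Its span holds the H/ACA RNA gene SNORA36A (chrX:154768528-154768659) and, inside that gene, the miRNA gene MIR664B (chrX:154768596-154768656). The Psi peak at chrX:154768600-154768619 had a summit of 5 tags and a 5.34-fold enrichment over local background, as the peak caller gave them. It covered bases 5 to 24 of the 24-base miR-664b-5p, and the last base of the peak was the last base of that miRNA. SNORA36B, a gene of the same snoRNA family on chromosome 1 whose span overlaps MIR664A, had a Psi peak over the same arm of its hairpin, with 3 tags and 3.89-fold enrichment. The sequences are shown because both peaks fall on the 5′ arm and neither on the 3′ arm. They are from RefSeq (GRCh38.p14), 5′ to 3′, with the bases under the Psi peak in capitals.
MIR664B hairpin, chrX:154768596-154768656, plus strand: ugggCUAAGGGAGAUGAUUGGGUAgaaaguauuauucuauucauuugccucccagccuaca
hsa-miR-664b-5p: ugggCUAAGGGAGAUGAUUGGGUA
hsa-miR-664b-3p: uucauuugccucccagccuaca
MIR664A hairpin, chr1:220200538-220200619, minus strand: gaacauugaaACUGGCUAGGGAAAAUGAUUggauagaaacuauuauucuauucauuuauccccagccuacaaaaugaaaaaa
hsa-miR-664a-5p: ACUGGCUAGGGAAAAUGAUUggau
In the DKC1 hairpin the capitals run to the end of the 5p miRNA. In the MIR664A hairpin they start at the first base of the 5p miRNA and end at its base 20. The hairpin of MIR664B ends in the letters ACA, shown here in capitals, 3 bases before the end of SNORA36A, the distance at which H/ACA RNAs carry their ACA box.
MIR664B hairpin, ACA in capitals: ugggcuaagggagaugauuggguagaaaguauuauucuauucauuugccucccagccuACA
The Psi list gives no strand, and the labels and headers do not say how reads that fit both SNORA36 genes were placed. SNORA36A, SNORA36B and SNORA61 were the only SNORA genes with a Psi summit, 3 of 182. SNORA56, the other H/ACA RNA gene in DKC1 (chrX:154774998-154775126), held no listed peak of any kind, and its nearest antibody block began 26 bases downstream. For SNORA36A the nearest block ended 77 bases upstream.

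Each antibody list gave a pooled IP value and a pooled input value per peak in RPM, reads scaled to the depth of the pooled library. No value therefore has a replicate error, and the 95% exact intervals below cover counting error of the pooled libraries alone. The pooled depth was 280714967 IP and 364905848 input reads for m1A, against 118320068 and 241116540 for m5C. It was 263344365 and 259416505 for m7G, and only 17135274 IP reads against 333220800 input reads for ac4C. Of 9 hepatocyte marker genes, 8 had a peak in each of the m1A, m5C and m7G lists and all 9 had a Psi peak, but only HNF4A had an ac4C peak. A peak was called higher or lower when its IP and input RPM differed at an adjusted p under 0.05 in an exact binomial test, two-sided, adjusted over the whole list. The largest adjusted p of a called peak among the 10 genes was 0.018 in this exact test. The call compares pooled libraries, not conditions.

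All 10 genes had a peak in the m1A list and in the m7G list. Of protein-coding genes with a peak in at least 1 other list, 69.6% had an m1A peak and 60.7% an m7G peak. The m5C list held 9 of the 10, all but NOP10, beside 65.5% of protein-coding genes. In the ac4C list 6 of 10 appeared, DKC1, GAR1, NHP2, PUS1, PUS3 and PUS7L, beside 35.3%. In the Psi list 6 of 10 appeared, DKC1, NOP10, GAR1, PUS1, PUS7L and TRUB1, beside 49.8%. In each list the share of these genes was above that of protein-coding genes, a difference that was not tested. DKC1, GAR1, PUS1 and PUS7L were in all 5 lists. So were 14.8% of protein-coding genes with any peak. NOP10, PUS7 and TRUB2 were in 3 lists each, and NHP2, PUS3 and TRUB1 in 4.

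**Figure D1:**
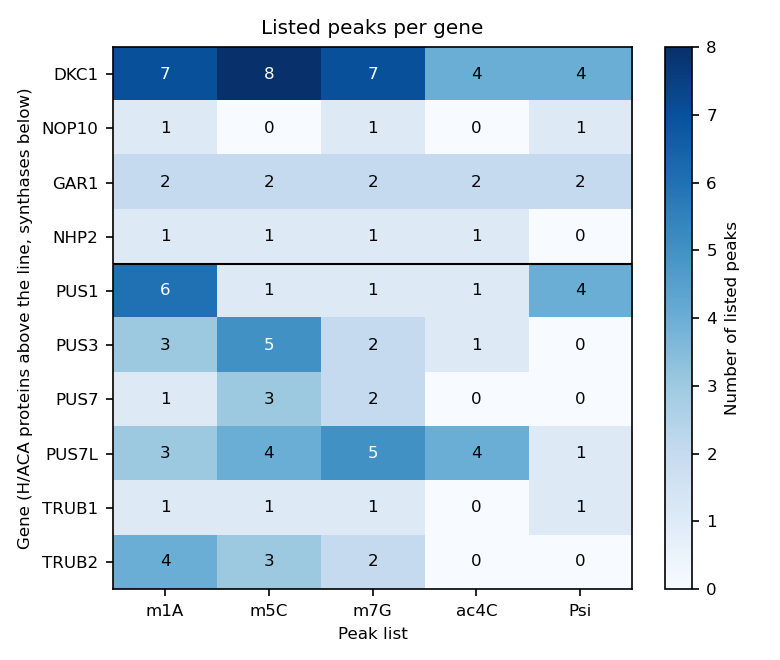
Number of listed peaks of each gene (rows) in each of the 5 lists (columns), with the H/ACA protein genes above the line. DKC1 had the most antibody peaks, 26, and NOP10 had 2; DKC1 and PUS1 each had 4 Psi peaks.

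DKC1 alone had 26 antibody peaks, PUS7L 16 and PUS3 11, while NOP10 had 2 and TRUB1 3. The spans differ as well, from 1418 bases for NOP10 and 14826 for DKC1 to 39799 for PUS7L and 65771 for PUS7, so the order of the counts was not that of the lengths. Input signal set DKC1 apart. Per kilobase of listed bases, the m7G input held 695 RPM over DKC1 peaks. It held 138 over TRUB1, 103 over PUS7, 65.6 over NHP2, 29.9 over PUS3 and 25.1 over NOP10. The remaining levels on this scale were 15.8 for GAR1, 14.5 for PUS7L, 10.1 for TRUB2 and 6.38 for PUS1. These levels cover listed stretches only, which differ between genes, and are no measure of whole transcripts.

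Among the 29 m1A peaks, 14 were higher in IP, 13 lower and 2 neither, where 60.6% of the whole m1A list was higher and 28.3% lower. Among the 28 m5C peaks, 13 were higher, 10 lower and 5 neither, beside 42.5% higher and 42.5% lower in the list. Among the 24 m7G peaks, 17 were higher, 5 lower and 2 neither, beside 66.2% and 21.5%. All 13 ac4C peaks were higher, as was 100% of that list. The median RPM ratio of the genes' peaks was 1.08 for m1A (list 1.67), 1.13 for m5C (list 1.01), 1.54 for m7G (list 1.36) and 9.12 for ac4C (list 11.9). The IP was also scaled so that the list's median ratio was 1. The split then became 11 higher and 17 lower for m1A and 13 and 8 for m7G. Under that scaling the whole lists held 13020 higher and 13042 lower of 29708 m1A peaks, and 7822 and 7699 of 16942 m7G peaks. For ac4C that scaling gave 3 higher and 6 lower, beside 3166 and 2928 of 8463 in the list. The direction of the ac4C peaks is thus relative to sequencing depth only. The m5C split stayed at 13 and 10, beside 9297 and 9261 of 21827. The log2 enrichment in the authors' deposited table had a median over the genes' peaks of 1.54 for m1A, 2.62 for m5C, 1.71 for m7G and 2.35 for ac4C. That value is another quantity than the RPM ratio, and it was used here only to pick the peak that stands for a gene in a list. It was positive for all 94 peaks, those called lower included, with 0.29 as the lowest value. Lower thus refers here to the RPM ratio alone, and the 2 quantities differ in direction at those peaks.

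**Figure D2:**
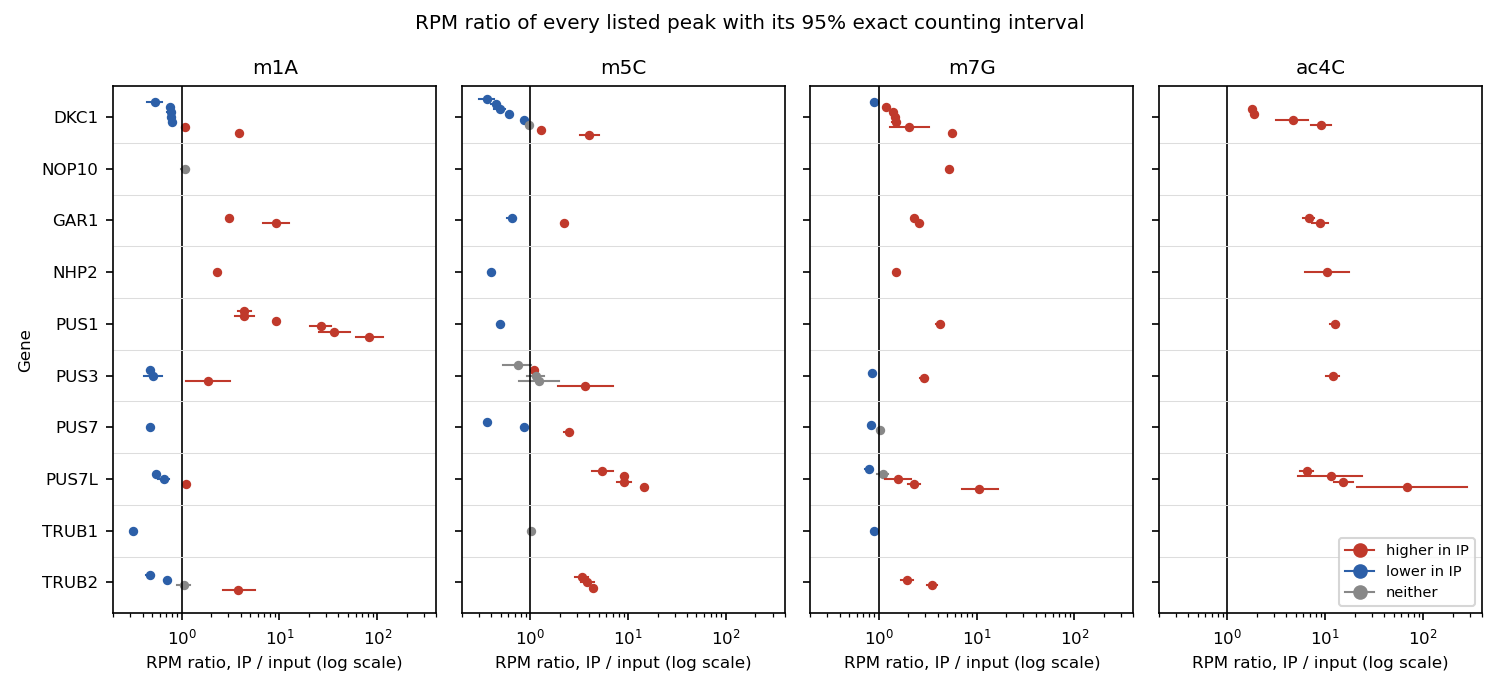
RPM ratio of IP over input (log axis) for each listed peak of the 10 genes, with its 95% exact counting interval, in 4 panels by modification; red is higher, blue lower and grey neither. The 6 PUS1 peaks lie to the right of 1 in the m1A panel, the 4 PUS7L and 3 TRUB2 peaks in the m5C panel, and all 13 peaks in the ac4C panel.

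At the 5′ end of DKC1, 3 lists held a peak over the same stretch, and the m7G and m1A ratios there were the highest of their DKC1 peaks. The m7G peak there began 47 bases before the annotated start and had 498 RPM in IP and 89.0 RPM in input, a ratio of 5.59 (95% exact interval 5.52 to 5.67). The m1A peak began 22 bases before the start and had 123.9 RPM in IP and 32.2 RPM in input, a ratio of 3.85 (3.77 to 3.93). The m5C peak began 122 bases before it and had 36.7 RPM against 37.2 RPM, a ratio of 0.984 (0.949 to 1.02) that was neither higher nor lower. At one and the same 5′ end, m7G and m1A IP signal thus stood above input while m5C signal equalled it within counting error. Downstream, the m1A signal turned. The largest m1A peak, 7 blocks with 925 bases in all, had 405.7 RPM in IP and 516.4 RPM in input, a ratio of 0.786 (0.780 to 0.792). In all, 5 of the 7 DKC1 m1A peaks were lower.

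The largest m7G peak of DKC1 downstream, 350 bases in 3 blocks, had 646.8 RPM in IP and 441.0 RPM in input, a ratio of 1.47 (1.46 to 1.48). Of the 7 m7G peaks of DKC1, 6 were higher and 1, which began 5438 bases from the start, was lower at 0.897 (0.842 to 0.955). For m5C, 5 of 8 were lower and 2 higher, one of them with 354.8 RPM against 275.4 RPM and the other, 14351 bases from the start, with 2.21 RPM against 0.547 RPM and a ratio of 4.03 (3.26 to 5.01). All 3 peaks that began 5438 bases from the start, for m1A, m5C and m7G, were lower, with ratios of 0.778, 0.363 and 0.897. They are the blocks nearest upstream of SNORA36A. The 4 ac4C peaks lay between 6391 and 13352 bases from the start, with ratios from 1.78 to 9.12. The 2 with the most IP signal, 161.7 and 88.2 RPM, had the lowest ratios, 1.78 and 1.90.

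**Figure D3:**
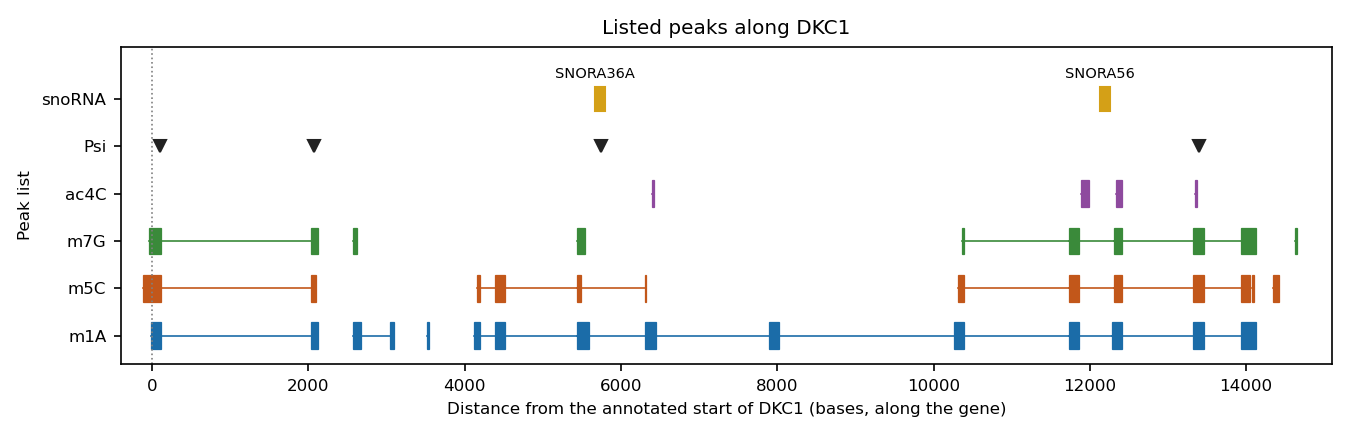
Blocks of the listed peaks along DKC1 by distance from the annotated start in bases, with 1 row per list; blocks of 1 peak are joined by a line, triangles are Psi summits and gold boxes are the hosted snoRNA genes. The m1A, m5C and m7G blocks stack at the start and at the downstream blocks, and the Psi summit 5742 bases from the start lies in SNORA36A outside all of them.

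The other H/ACA protein genes had fewer peaks, and their m7G peaks were all higher. NOP10, whose small protein braces dyskerin, had 27.8 RPM in m7G IP and 5.26 RPM in input, a ratio of 5.28 (4.99 to 5.60). Its only other antibody peak, for m1A, was neither at 3.66 RPM against 3.37 RPM (1.08, 0.998 to 1.18). NHP2, which binds the guide RNA, had 1 peak in each antibody list. For m1A it had 36.3 RPM against 15.6 RPM (2.32, 2.25 to 2.40) and for m7G 34.1 RPM against 23.0 RPM (1.49, 1.44 to 1.54). For m5C, over 225 bases of the same gene, it had 7.45 RPM against 18.6 RPM (0.401, 0.373 to 0.431). The m5C peak of NHP2 was thus lower where m1A and m7G peaks were higher. These peaks began within 500 bases of the start. Of such peaks of all protein-coding genes, 63.7% were lower for m5C, 85% higher for m1A and 97.9% higher for m7G. The ac4C peak of NHP2 was a single 25-base block with 1.46 RPM against 0.138 RPM, from 25 IP and 46 input reads. Its ratio was 10.6 (6.22 to 17.6).

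GAR1, which joins the particle last in place of the assembly factor NAF1, had 2 peaks in every list. Its m1A peaks had ratios of 9.15 (6.85 to 12.4) near the start and 3.06 (2.902 to 3.232) along the rest of the gene, with 16.1 RPM against 5.24 RPM in the latter. Its m5C peaks split. The peak near the start was lower, 4.20 RPM against 6.49 RPM (0.647, 0.584 to 0.716), and the downstream peak was higher, 18.9 RPM against 8.58 RPM (2.21, 2.08 to 2.34). Both m7G peaks were higher, at 2.60 and 2.32, and both ac4C peaks, at 8.88 and 6.80. Of its 2 Psi peaks, the one 8482 bases from the start lay in blocks of all 4 antibody lists, the only summit among the 10 genes that did.

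PUS1, a tRNA and messenger RNA synthase that also works in mitochondria, had the largest m1A ratios of the set. All 6 of its m1A peaks were higher. The peak 425 bases from the start had 9.61 RPM in IP and 0.118 RPM in input, from 2697 and 43 reads, a ratio of 81.5 (60.4 to 113). The peaks 50 and 175 bases from the start had ratios of 26.3 (20.6 to 34.0) and 36 (25.4 to 52.6), with 69 and 33 input reads. The broadest peak, 1075 bases in 4 blocks from base 635 on, had 106.1 RPM against 11.6 RPM (9.12, 8.83 to 9.42), and the 2 most distant had ratios of 4.36 and 4.37. The m1A ratio of PUS1 was thus above 4 at every listed peak, and the inputs of the 3 peaks near the start were thin. For m5C the only PUS1 peak was lower, 5.97 RPM against 12.0 RPM (0.495, 0.456 to 0.538), while its log2 enrichment in the authors' table was 3.52. For m7G the only peak began at the annotated first base and was higher, 9.35 RPM against 2.23 RPM (4.19, 3.83 to 4.59). For ac4C it had 32.5 RPM against 2.59 RPM (12.5, 11.2 to 13.9). PUS1 also had 4 Psi peaks, 3 of them within 413 bases of the start.

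**Figure D4:**
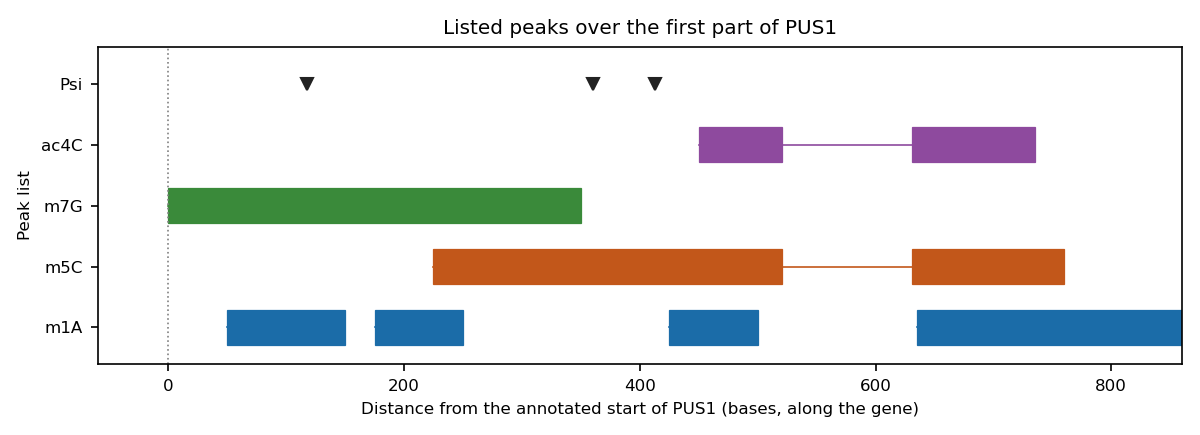
Blocks of the listed peaks over the first part of PUS1 by distance from the annotated start in bases, with 1 row per list and triangles at Psi summits. The m7G peak starts at base 0, the m5C and ac4C peaks start at bases 225 and 450, and 4 m1A peaks start at bases 50, 175, 425 and 635.

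PUS3, which modifies uridines of the tRNA anticodon arm, had 11 antibody peaks, of which 5 were higher, 3 lower and 3 neither. Its first m7G peak, from 15 bases before the start, had 6.94 RPM against 2.38 RPM (2.91, 2.66 to 3.20), while the m7G peak 9297 bases on was lower at 0.856 (0.8003 to 0.9156). For m1A, 2 of 3 peaks were lower, at 0.477 and 0.513. The third was higher at 1.86 (1.12 to 3.13), from 40 IP and 28 input reads. Of 5 m5C peaks, 3 were neither, with ratios from 0.745 to 1.24. The other 2 were higher, at 1.11 with 16.9 RPM against 15.3 RPM and at 3.60 (1.92 to 6.95) from 30 IP and 17 input reads. The single ac4C peak had 18.2 RPM against 1.52 RPM (11.9, 10.3 to 13.7). PUS3 shares 7162 bases of its span with HYLS1 on the other strand, and NHP2 shares 1106 bases with RMND5B. No listed block of either neighbour overlapped a listed block of these genes. The libraries were stranded, but the labels do not say whether the counting used strand.

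PUS7 and PUS7L are related synthases of the TruD family, and their m5C peaks differed. PUS7, which acts on tRNA and messenger RNA, had 1 m1A peak, lower, with 39.1 RPM against 83.0 RPM (0.471, 0.461 to 0.482). Its m7G peaks stood at 1.03 (neither) and 0.826 (lower). Of its 3 m5C peaks, those 13802 and 16250 bases from the start were lower, at 0.366 and 0.873, and the one 65271 bases from the start was higher, at 2.48 (2.24 to 2.74). PUS7 had no ac4C and no Psi peak. It was 1 of 2 genes of the set, with TRUB1, that had no m7G peak higher in IP.

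For PUS7L all 4 m5C peaks were higher, with ratios of 14.6, 9.07, 9.05 and 5.43, each above 4 at the lower end of its interval. The largest, 300 bases in 3 blocks at chr12:43742504-43748504, had 48.5 RPM against 3.32 RPM (13.6 to 15.8). The m1A list held a peak with the very same coordinates, at 9.39 RPM against 8.38 RPM (1.12, 1.06 to 1.18). At the second shared pair, chr12:43719442-43719591, m5C stood at 6.51 RPM against 0.718 RPM (9.07, 7.68 to 10.8) and m1A at 1.31 RPM against 1.99 RPM, which was lower (0.658, 0.579 to 0.747). On the same bases of PUS7L, m5C IP signal was thus far above its input and m1A IP signal close to or below its own. Over all 506 stretches with equal coordinates in these lists, the median ratios were 1.23 for m1A and 2.16 for m5C. A higher ratio for m5C than for m1A was thus also the direction of the lists at large. The inputs differed too. The m1A input was 2.52 and 2.78 times the m5C input at these stretches, and 86.4% and 88.9% of the 506 m1A and m5C peaks with equal coordinates had a lower quotient. The part of the inputs in this difference was not tested.

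The m7G peaks of PUS7L ran from 10.6 (7.06 to 16.5) at the peak 11 bases from the start, with 279 IP and 26 input reads, down to 0.796 at the peak 38724 bases from it. The 4 ac4C peaks began between 29374 and 39124 bases from the start. The one with the fewest input reads had a ratio of 68.1, from 14 IP and 4 input reads, with an interval from 21.4 to 284. The best covered had 14.4 RPM against 2.23 RPM (6.46, 5.57 to 7.46).

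**Figure D5:**
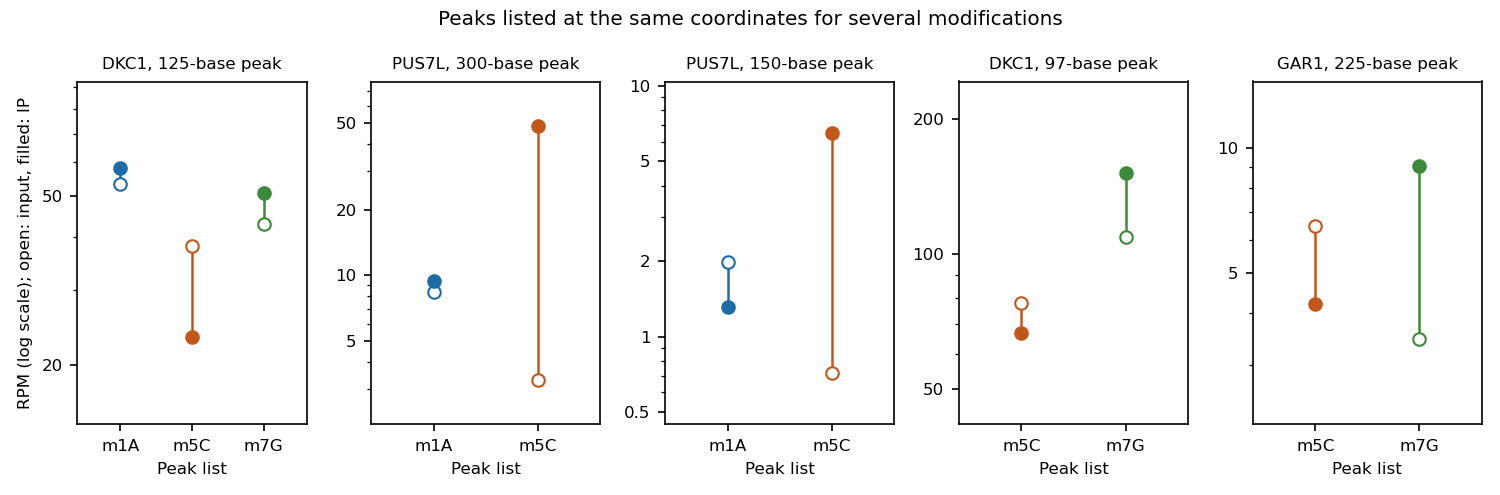
Input (open) and IP (filled) RPM on a log axis for the 5 stretches of these genes that 2 or 3 lists gave with equal start and end, with 1 panel per stretch. At both PUS7L stretches m5C IP lies far above its input while m1A values lie close together, and at the GAR1 stretch m5C falls from input to IP where m7G rises.

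Among the other equal stretches, DKC1 had a 125-base peak in 3 lists. Its ratio was 1.09 (1.06 to 1.11) for m1A, 0.611 (0.586 to 0.638) for m5C and 1.19 (1.16 to 1.22) for m7G. A 97-base DKC1 peak stood at 0.859 for m5C and 1.39 for m7G, and the 225-base GAR1 peak near the start at 0.647 and 2.60. At each of the 3 stretches that m5C and m7G shared, m5C was lower and m7G higher. Over all 484 stretches with equal coordinates in these lists, the median ratios were 0.706 for m5C and 1.79 for m7G, so the split was that of the lists at large. The m5C input was 1.88 times the m7G input at the GAR1 stretch, and 90.5% of the 484 had a lower quotient. At the 125-base and 97-base DKC1 stretches it was 0.885 and 0.712 times. The part of the inputs in the split was not tested. Of the m1A peaks, 24 of 29 shared at least 1 base with a peak of the same gene in another antibody list, beside 54.2% of m1A peaks of all protein-coding genes. The counts were 21 of 28 for m5C (60.2%), 18 of 24 for m7G (74.6%) and 8 of 13 for ac4C (43.6%). The genes' peaks were also wider than those of the lists for m1A (median 125 against 100 bases), m5C (225 against 125) and m7G (169.5 against 125), and the part of width in the overlap was not tested.

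TRUB1 makes the common pseudouridine of the tRNA T loop, and TRUB2 is a mitochondrial relative. TRUB1 had the lowest m1A ratio of the 10 genes, 14.4 RPM in IP and 45.0 RPM in input (0.320, 0.309 to 0.331). Its m7G peak was lower as well, 28.1 RPM against 31.2 RPM (0.901, 0.873 to 0.930), and its m5C peak neither, 29.1 RPM against 28.2 RPM (1.03, 0.991 to 1.08). No TRUB1 peak was thus higher. TRUB2 had 3 m5C peaks, all higher, at 4.37, 3.84 and 3.35. The first of them had 54.3 RPM in IP and 12.4 RPM in input. Both TRUB2 m7G peaks were higher, 3.48 (3.11 to 3.91) at the annotated first base and 1.96 (1.70 to 2.26) from base 570. For m1A, the TRUB2 peak 39 bases from the start was higher at 3.80 (2.64 to 5.59), and the 3 near the other end were neither (1.05) or lower (0.475 and 0.710). Only the m1A peak at 0.710 shared bases with an m5C peak of TRUB2, the one at 4.37, and this pair ran in opposite directions.

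Grouped by position, the m7G peaks near the annotated start behaved alike. All 9 m7G peaks whose first base lay within 500 bases of the start were higher, in 8 genes. Of such peaks of all protein-coding genes, 97.9% were higher and 1.07% lower. Beyond 500 bases 8 of 15 were higher and 5 lower, beside 47.8% and 33.5%. For m1A, 7 of 9 near the start were higher and 1, of PUS7, lower, beside 85% and 11.4%, while beyond it 7 of 20 were higher and 12 lower, beside 55.9% and 31.7%. For m5C none of 5 near the start was higher and 3 were lower, those of GAR1, NHP2 and PUS1, beside 22% higher and 63.7% lower. Beyond it 13 of 23 m5C peaks were higher and 7 lower, beside 44.8% and 40.5%. All 3 ac4C peaks near the start were higher, as was 100% of such peaks. The m7G share near the start was thus that of all genes. A peak of several blocks can reach far past its first base, and the split by distance was chosen after the values had been seen.

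The m7G peaks of DKC1, NOP10, NHP2 and PUS3 began before the RefSeq start, by 47, 25, 47 and 15 bases. The last 60 bases before the start (RefSeq, GRCh38.p14) are shown because the listed peaks place RNA reads there. They are printed 5′ to 3′ along the gene, with the bases under the m7G peak in capitals.
DKC1, chrX:154762804-154762863, plus strand: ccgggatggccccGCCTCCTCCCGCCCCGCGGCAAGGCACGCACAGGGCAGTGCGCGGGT
NOP10, chr15:34343137-34343196, minus strand: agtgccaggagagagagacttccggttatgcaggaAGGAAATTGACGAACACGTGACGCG
NHP2, chr5:178153886-178153945, minus strand: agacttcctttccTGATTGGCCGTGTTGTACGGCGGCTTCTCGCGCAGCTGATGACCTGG
PUS3, chr11:125903207-125903266, minus strand: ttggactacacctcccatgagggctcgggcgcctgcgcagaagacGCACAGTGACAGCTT
The start of these peaks moves in steps, since 87 of the genes' 94 antibody peaks (92.6%) had widths that were multiples of 25 bases. A difference of a few bases between a peak and the annotated start is therefore within the step of the lists.

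The 13 Psi peaks were low piles of tags. Their pileup ran from 3 to 6 tags (list median 4) and their fold over local background from 3.86 to 6.49, with a median of 5.22 where the list had 3.95. The highest was that of DKC1 101 bases from the start, at 6 tags and 6.49-fold, above 89.4% of the list. A PUS1 peak 12316 bases from the start had 6 tags and 6.003-fold enrichment, and a DKC1 peak 13396 bases from the start had 6 tags and 5.98-fold enrichment. NOP10 had 5 tags and 5.74-fold enrichment 93 bases from its start. The lowest were TRUB1 at 3.86-fold and PUS7L at 3.89-fold, with 3 tags each. In this set, H/ACA protein genes held 7 Psi peaks and synthase genes 6. Of the 13 summits, 10 lay inside a block of an antibody peak, beside 36.8% of summits in protein-coding genes and 42.3% of those in genes with an antibody peak. Outside were the SNORA36A peak of DKC1, 1 GAR1 peak 2721 bases from the start and the PUS7L peak. No input or control was used in calling the Psi list, so how far these positions follow transcript level was not tested.

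The ac4C values need the markers of other cells beside them. Of 17 fibroblast and mesenchymal marker genes, 12 had an ac4C peak, with 1152 RPM summed in IP and 4.38 RPM in input, and 10 of the 12 had at most 3 input reads. COL6A3, PDGFRB, ACTA2, TAGLN and FBN1 had none. The m1A list held 3 of these 17 genes, the m5C list 3 and the m7G list 2. Of the 9 hepatocyte markers, HNF4A alone was in the ac4C list, at 4.96 RPM in IP and 0.771 RPM in input. The 13 ac4C peaks of the 6 genes here had from 4 to 30192 input reads, and the range over the whole ac4C list was not worked out. The part of other RNA in the ac4C IP values of the 6 genes was not tested.

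The pathway's other genes are given for comparison, without a test. Of 6 further synthase genes and 9 genes for H/ACA assembly, trafficking and telomerase, 8 of 15 had an m1A peak. An m5C peak was found in 6 of them, an m7G peak in 9, an ac4C peak in 4 and a Psi peak in 5. Of all protein-coding genes, with or without a peak in another list, 41.2% had an m1A peak and 39.3% an m5C peak. The shares were 35.9% for m7G, 22.1% for ac4C and 32.3% for Psi. RPUSD1 and TERT, the telomerase reverse transcriptase, were in none. Among their 23 m1A peaks 14 were higher and 7 lower, among 12 m5C peaks 6 and 6, among 18 m7G peaks 12 and 4, and all 5 ac4C peaks were higher. RPUSD2, a further stand-alone synthase, had 6.04 RPM against 0.271 RPM for m1A (22.3, 18.2 to 27.6), 0.333 for m5C and 4.23 for m7G, the same order as in PUS1. RPUSD3, a mitochondrial synthase, had ratios of 2.14, 0.459 and 1.99 in that order. PUSL1 had 8.82 for m1A, and PUS10 had 3.06 for m1A, 2.625 for m5C and 4.01 for m7G. RPUSD4 had 6.38 for m7G and 9.10 for ac4C. WRAP53 had 16.9 for m7G, and RUVBL2 had 10.8 for m1A and 11.3 for m7G. NAF1, the assembly factor that GAR1 replaces, had 0.445 for m1A, 2.33 for m5C, 6.30 for m7G and 10.6 for ac4C. NOLC1, a nucleolar chaperone of snoRNA particles, had 282.5 RPM against 157.5 RPM for m5C (1.79) and 337.0 RPM against 100.4 RPM for ac4C (3.36). Its ratio was 0.628 for m1A and 2.985 for m7G. COIL, the coilin of Cajal bodies, had 156.5 RPM against 28.9 RPM for m5C (5.42, 5.28 to 5.58). It was lower for m1A (0.788) and m7G (0.921) and higher for ac4C (10.3). None of the 6 further synthases held a Psi peak, while SHQ1, WRAP53, RUVBL1, RUVBL2 and PARN did.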

How the data were processed

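Per the labels' protocols, total RNA went into stranded messenger RNA libraries with molecular identifiers. The submitters' processing notes name the build hg38 and the tools HISAT2, StringTie and DESeq, with no roles. The caller of the antibody peaks, deduplication and the handling of reads with several matches are not given in the sources used here, nor whether the 3 libraries of a group were separate cultures. The authors deposited RPM values, 1 for IP and 1 for input per peak, pooled over libraries. The log2 enrichment and the p-value of each peak are those of the authors' deposited table and served only to choose or rank peaks. Per the file headers, MACS 2.2.6 pooled the 3 Psi libraries, used no control, kept 1 tag per position and listed peaks at a q-value limit of 0.05. This left 20.3% of 10921552 tags. Per the file headers, the pileup signal, the fold over local background and the −log10 q-value are the caller's.

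The planned limma test on values per library could not be run on pooled values. Every RPM value (100%) lay within 0.1 read of a whole number of reads, which gave the depths. RPM ratios have 95% exact Clopper-Pearson intervals. Reads were compared with an exact binomial test, two-sided, Benjamini-Hochberg adjusted over each list (SciPy 1.17.1). The test was tried on simulated reads drawn from the binomial model that it assumes. Such a trial does not cover variation between libraries. Gene spans came from a RefSeq table (GRCh38.p14), and no exon annotation was used. A gene's ratio in a list is that of its peak with the highest authors' enrichment. The text gives all 10 genes for each list, with or without a peak. Other pathway genes are named where they had a peak, with the ratio of 1 peak per antibody list. Genes and lists were chosen with earlier results of these data known.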

Additional observations from a re-analysis of the deposited data

How the results depend on the processing

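No paired analysis was possible because each list holds values pooled over libraries. For the same reason leaving out single libraries and another normalization of counts were not run. Under stricter lists, 5 of the 10 genes kept an m1A peak and 3 a Psi peak, and a pileup of 5 or more also left 3 with a Psi peak. With a ratio of 0.5 or less required, lower peaks numbered 4 for m1A, 6 for m5C and 0 for m7G. With a ratio of 2 or more, 10 m7G peaks were higher. The share of the whole lists at these stricter settings was not worked out. Whether the losses are particular to these genes was thus not tested. With the list's median ratio set to 1, 8 m7G peaks were lower, and ac4C split into 3 higher and 6 lower, beside the list counts given above. Over all protein-coding genes the share with a peak was 41.2% for m1A, 39.3% for m5C, 35.9% for m7G, 22.1% for ac4C and 32.3% for Psi.

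A gene's direction depended on the peak that stood for it. Summed over all peaks, the m1A ratio fell below 1 for DKC1 (0.933), PUS3 (0.496), PUS7L (0.708) and TRUB2 (0.682), and the m5C ratio of PUS7 was 0.580. With the peak of highest input, m1A ratios were 0.786 for DKC1, 0.477 for PUS3, 0.547 for PUS7L and 0.710 for TRUB2, and the m5C ratio of PUS7 was 0.366. On that choice the m7G ratios were 0.856 for PUS3, 1.03 for PUS7 and 0.796 for PUS7L. The peaks of these genes differ among themselves, as their values show. Each gene's ratio in a list was set against its sum over all peaks, its highest-input peak and a pseudocount of 1 read. Of these comparisons, 13 were counted as reversed and 92 were not, of which 14 moved by over 1.5 times. Among those counted as reversed was m7G of PUS7, which went from lower at 0.826 to neither at 1.03. The m5C ratio of DKC1, neither at 0.984, was not counted as reversed. It was 1.10 summed over all peaks and 1.29 at the highest-input peak. Summed over all peaks, m1A of PUS1 went from 81.5 to 9.88, m5C of PUS3 from 3.60 to 1.11 and of PUS7L from 5.43 to 10.6, and m7G of DKC1 from 5.59 to 1.96, of PUS3 from 2.91 to 1.37 and of PUS7L from 10.6 to 1.22. For ac4C, DKC1 went from 9.12 to 1.87 and PUS7L from 68.1 to 8.65. The other 46 counts and shares stayed within 1.5 times. Windows of 200 and 1000 bases, added after the data had been seen, left all m7G peaks near the start higher and no m5C peak there higher. Depth limits peaks with few input reads, whose minimum over the 10 genes was 4 for ac4C (PUS7L), 17 for m5C (PUS3), 26 for m7G (PUS7L) and 28 for m1A (PUS3).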
